A study of Mus musculus with 4 samples.

Results

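The genes described here are the xenobiotic and detoxifying enzyme families of mouse colonic organoid cultures, that is, the cytochromes P450 of the Cyp2, Cyp3 and Cyp4 families, the UDP-glucuronosyltransferases (Ugt), the glutathione S-transferases (Gst), the carboxylesterases (Ces), the sulfotransferases (Sult) and the aldo-keto reductases of the Akr1b and Akr1c groups. They were picked by gene symbol and not by any measured value, which gave 169 of the 30360 genes in the deposited table. Of these, 44 had no UMI (unique molecular identifier, the count of 1 captured RNA molecule) in any cell, 55 had 1 to 99 UMIs and 70 had 100 UMIs or more. The members held 579314 UMIs in all and fell into 17 families. All but 1 were annotated as protein-coding, the exception being the antisense gene Cyp4x1os with 1 UMI.

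Foreign compounds and many internal lipids are cleared in steps. In phase I, cytochromes P450 oxidise, carboxylesterases hydrolyse esters, and aldo-keto reductases turn reactive carbonyls into alcohols. In phase II, glutathione S-transferases, UDP-glucuronosyltransferases and sulfotransferases attach a water-soluble group, after which ABC transporters export the conjugate. The liver is the best known site, and the gut lining carries its own set because it meets food compounds and microbial products first. Nuclear receptors and the aryl hydrocarbon receptor switch many of these genes on when ligand is present, and NRF2 does so under oxidative stress.

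Cells came from the distal colon of 16-week-old wildtype mice and of Tnfr2-/- mice, which carry a whole-body deletion of TNF receptor 2 (gene Tnfrsf1b), and were grown in gel as organoids. After passage 5, cultures stayed untreated or received tumor necrosis factor (TNF, 20 ng/ml), which was started on day 1 and stopped on day 6 of the new passage, and all were harvested on day 7 for single-cell 3' libraries. Each genotype gave an untreated and a TNF culture with 1 library each, so there were no replicates and no test between groups was made. Sets of 4 values give both wildtype libraries first, untreated before TNF, and then both Tnfr2-/- libraries in the same way, and genotype differences are given for untreated and then TNF cultures.

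The libraries held 980 to 2589 cells and 44547639 to 87228093 UMIs. The authors' 11 classes were used as deposited, 7 of them epithelial and 4 mesenchymal, and 35 cells had no class. Summed UMIs of the 5 epithelial markers Epcam, Krt8, Krt18, Krt19 and Cdh1 were 10509 to 13374 CPM (UMIs per 1000000 UMIs of the same cells) in epithelial classes and 127 to 763 CPM in mesenchymal classes, highest in the Tnfr2-/- TNF library. Absorptive cells were 28.3% of the epithelial cells in the wildtype untreated library (319 cells) and numbered 19, 11 and 1 in the others. Tnfrsf1b stood at 4.17, 12.1, 1.82 and 6.89 CPM in the epithelium, and since its 3' tags need not lie in the deleted part, they do not check the genotype. Xist was at 558 and 683 CPM in wildtype epithelium and at 0.158 and 0.101 CPM in Tnfr2-/- epithelium, while 4 Y-linked genes (Ddx3y, Eif2s3y, Kdm5d and Uty) summed to 5.32, 29.4, 0.0790 and 0.151 CPM in the epithelium of the 4 libraries. In mesenchyme Xist stood at 705, 553, 0.459 and 0 CPM and the Y-linked genes at 0.0862, 0.476, 143 and 135 CPM. Tnfr2-/- epithelium thus had almost no UMI of either kind, and genotype cannot be told apart from differences in sex chromosomes or donor. Intervals below are exact 95% intervals that cover counting error only, and 3 barcodes occurred in 2 libraries.

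The mix of families differed between epithelium and mesenchyme, although Gst genes held the largest share in both. Summed over the 4 libraries, the members took 2670 CPM in epithelial cells and 1551 CPM in mesenchymal cells. In the epithelium 52.5% of this came from Gst genes and 22.3% from P450 genes, while Ces, Akr1, Sult and Ugt genes gave 5.10%, 11.6%, 5.57% and 2.98%. In the mesenchyme Gst, Ces and Akr1 genes gave 38.9%, 30.5% and 24.5%, with 5.25% from P450 genes. A 3' UMI counts a molecule whatever its length, so CPM values of different genes are set side by side without a length correction. Gsto1, which reduces dehydroascorbate and removes glutathione from proteins, alone held 33.0% of the epithelial UMIs of the members. Ces1f, a carboxylesterase with lipase activity, held 22.3% of the mesenchymal ones.

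**Figure D1:**
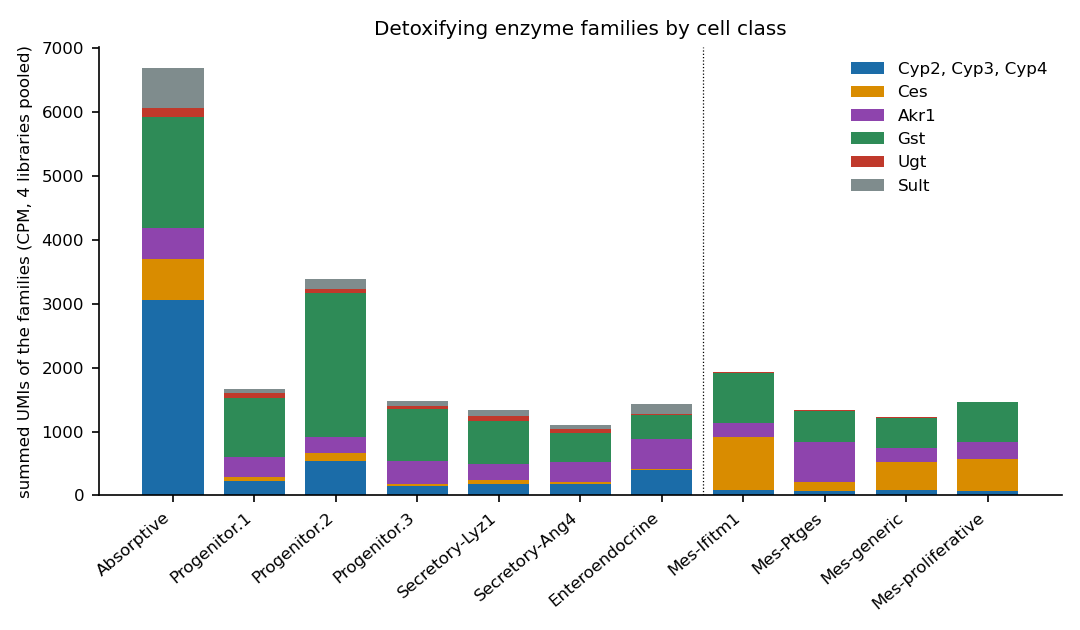
Summed level of the families in each cell class (bars, CPM with the 4 libraries pooled), coloured by enzyme group, with a dotted line between the 7 epithelial and the 4 mesenchymal classes. Absorptive cells stand highest at 6685 CPM with 45.7% of it from P450 genes, Progenitor.2 follows at 3393 CPM with 66.6% from Gst genes, and Ces and Akr1 genes fill most of what the mesenchymal bars do not give to Gst.

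By class, the summed level was highest in Absorptive cells in all 4 libraries (6620, 8184, 6300 and 5974 CPM, the last from 1 cell). Progenitor.2, the non-cycling progenitor class, came next among the larger epithelial classes at 4280, 3231, 4843 and 2984 CPM. Progenitor.1, a cycling class, held 1865, 1755, 1529 and 1320 CPM, so each Progenitor.2 value lay above each Progenitor.1 value. Of the 70 members with 100 UMIs or more, 29 had their highest pooled level in Absorptive cells, 7 each in Progenitor.2, Enteroendocrine and Mesenchyme-Ifitm1 cells, and the other 20 were spread over the remaining 7 classes. No share of all genes was taken beside these counts. Pooled levels also weigh the libraries unevenly, since the wildtype untreated library gave 319 of 350 Absorptive cells. These classes were made from the same cells and genes, so differences between classes are descriptions and carry no test.

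**Figure D2:**
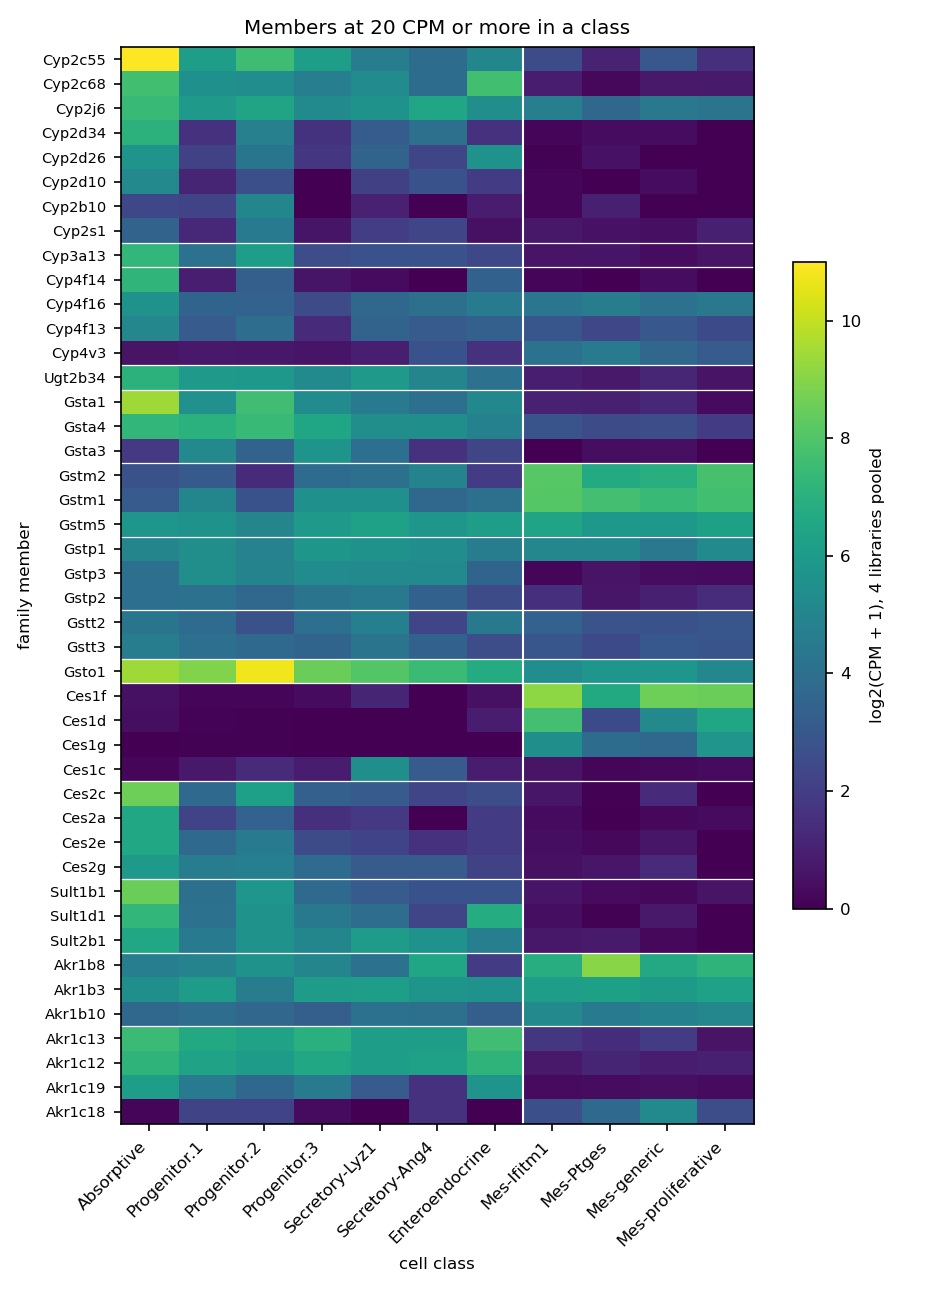
Pooled level of the 44 members that reached 20 CPM in at least 1 class (rows, grouped by family) across the 11 classes (columns, epithelial left of the white line), as log2(CPM + 1). The Absorptive column is brightest for Cyp2c55, Gsta1, Ces2c and Sult1b1, Gsto1 is brightest in Progenitor.2, and Ces1f, Gstm1, Gstm2 and Akr1b8 are brightest to the right of the line.

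Among P450 genes, Cyp2c55 led. It is an arachidonic acid oxidising P450 known from the colon and made up 58.4% of the epithelial Cyp2 UMIs. Its epithelial level was 776, 143, 84.5 and 103 CPM, against 5.26, 0.136, 0 and 3.77 CPM in mesenchyme. In Absorptive cells it stood at 2078, 1624, 1540 and 762 CPM. After each cell was thinned to 5000 UMIs, 94.6% of wildtype untreated Absorptive cells (interval 91.6% to 96.8%; 97.8% unthinned) and 26.4% of Progenitor.1 cells (22.7% to 30.3%; 52.6% unthinned) had a Cyp2c55 UMI, against 1.69% of mesenchymal cells (1.09% to 2.51%; 5.17% unthinned) of the same library. The wildtype untreated library was the highest in the epithelium, and 85.4% of its epithelial Cyp2c55 UMIs lay in Absorptive cells, which held 31.9% of its epithelial UMIs.

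Cyp2c55 lies in a cluster on chromosome 19 (39007019 to 39042693 on GRCm38, plus strand) beside relatives with far fewer UMIs. Cyp2c68, next in that cluster by level, reached 99.6, 66.5, 39.4 and 28.7 CPM in the epithelium, and 32.8% of its 3' end words of 75 bases also occur in Cyp2c40, so part of its count may belong there. Cyp2c65 held 382 UMIs in all and Cyp2c69 held 197. The stretches before the RefSeq starts (GRCm38.p6) of these 4 genes are shown. In the promoter search below, those of Cyp2c65, Cyp2c68 and Cyp2c69 held the exact letters CAAAGTCCA and that of Cyp2c55 did not. The stretches do not stand for the whole cluster. They lie at chr19:39006769-39007018 (plus), chr19:39060756-39061005 (plus), chr19:39741102-39741351 (minus) and chr19:39886800-39887019 (minus), and each is written 5′ to 3′ on the gene's strand. The GENCODE start of Cyp2c68 lies further downstream, at 39741054. For Cyp2c69, bases next to the RefSeq start that the GENCODE gene covers were left out, so 220 bases are shown. Capitals mark CAAAGTCCA, a motif bound by HNF4, and GCGTG or its reverse complement CACGC, the core of the aryl hydrocarbon receptor element.
Cyp2c55: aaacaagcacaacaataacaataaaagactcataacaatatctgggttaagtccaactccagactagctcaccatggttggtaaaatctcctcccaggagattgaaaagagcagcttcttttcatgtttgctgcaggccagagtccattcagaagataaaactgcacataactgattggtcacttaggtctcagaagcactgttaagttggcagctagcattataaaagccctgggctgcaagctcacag
Cyp2c65: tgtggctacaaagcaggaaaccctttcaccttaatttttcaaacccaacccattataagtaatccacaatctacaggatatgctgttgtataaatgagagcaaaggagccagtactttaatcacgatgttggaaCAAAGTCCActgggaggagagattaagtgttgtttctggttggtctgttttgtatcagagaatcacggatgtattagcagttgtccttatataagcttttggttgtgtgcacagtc
Cyp2c68: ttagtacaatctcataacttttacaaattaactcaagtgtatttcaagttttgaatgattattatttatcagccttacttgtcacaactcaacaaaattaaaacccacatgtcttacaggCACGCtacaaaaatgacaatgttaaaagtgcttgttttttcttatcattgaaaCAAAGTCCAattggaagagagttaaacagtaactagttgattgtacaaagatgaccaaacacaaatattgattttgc
Cyp2c69: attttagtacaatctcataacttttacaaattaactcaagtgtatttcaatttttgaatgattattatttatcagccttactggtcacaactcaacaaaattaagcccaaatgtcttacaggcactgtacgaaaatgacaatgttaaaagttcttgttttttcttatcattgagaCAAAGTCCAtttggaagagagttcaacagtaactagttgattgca

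The windows of Cyp2c68 and Cyp2c69 resembled each other, with 99 of the 239 words of 12 bases in the first found in the second, while neither Cyp2c55 nor Cyp2c65 shared such a word with any of the other 3. The motif CAAAGTCCA, searched on both strands over 250 bases before and 50 bases after each start, occurred in 11 of 141 members with a RefSeq window (7.80%) and in 150 of 27025 genes (0.555%). It was searched after the values of the members had been seen. Besides the 3 neighbours above it lay before the starts of Cyp2c40, Cyp2c67, Cyp2c70, Cyp3a11, Cyp3a16, Cyp3a41a and Cyp3a41b, and after the start of Sult1b1. Apart from Sult1b1 these are members of the Cyp2c and Cyp3a families, some with similar sequence, and cannot be counted as independent. Sult1b1 and Cyp2c68 had 11240 and 11037 UMIs, and the other 9 had 0 (Cyp3a16) to 382 (Cyp2c65). The antioxidant response element core TGACNNNGC occurred in 10 members (7.09%) and in 14.0% of all genes, and the aryl hydrocarbon receptor core GCGTG in 25 members (17.7%) and in 35.2% of all genes. Hnf4a itself, a nuclear receptor of gut and liver epithelium, stood at 95.8, 108, 89.4 and 60.7 CPM in epithelium and at 0.680 to 3.35 CPM in mesenchyme.

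The other P450 genes were lower and mostly epithelial. Cyp2j6, a fatty acid oxidising P450, stood at 98.3, 98.2, 51.9 and 54.9 CPM in the epithelium and at 10.1 to 22.8 CPM in mesenchyme, where it made up 51.8% of the Cyp2 UMIs. Cyp3a13, the main Cyp3a of the mouse gut, held 96.0% of epithelial Cyp3 UMIs at 65.1, 34.1, 29.9 and 49.4 CPM. Cyp4f14, which oxidises leukotriene B4, stood at 49.6, 9.19, 2.53 and 3.47 CPM in the epithelium, and 94.4% of its wildtype untreated epithelial UMIs lay in Absorptive cells. Cyp4f16 was measured in both compartments, at 8.27 to 24.7 CPM in epithelium and 15.6 to 24.6 CPM in mesenchyme, and Cyp4f13 stood at 9.003 to 17.0 and 3.81 to 9.65 CPM. Cyp4v3 stood higher in mesenchyme in every library, at 13.5, 19.6, 23.0 and 30.0 CPM against 0.457 to 1.14 CPM.

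Both Cyp2b10 and Cyp2s1 had their highest pooled level in Progenitor.2. Cyp2b10, a known target of the constitutive androstane receptor, stood at 34.5, 13.4, 37.4 and 37.3 CPM in Progenitor.2 and at 0.548 to 6.04 CPM in Progenitor.1. Cyp2s1, a known target of the aryl hydrocarbon receptor, stood at 4.76, 28.8, 12.5 and 25.0 CPM in Progenitor.2 and at 0.572 to 2.34 CPM in Progenitor.1. Both were thus higher in Progenitor.2 in each of the 4 libraries, but did not reach 20 CPM in all of them. In Absorptive cells of the wildtype untreated library, Cyp2b10 stood at 3.86 CPM, below Progenitor.2, and Cyp2s1 at 9.65 CPM, above it. Cyp2e1 had 5 UMIs in all cells, Cyp4b1 had 28 and Cyp2c29 had none.

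The carboxylesterases split by compartment. Ces2 genes, the gut type, summed to 265, 93.3, 65.5 and 88.6 CPM in the epithelium and to 0.408 to 2.31 CPM in mesenchyme. Their leader Ces2c stood at 141, 53.1, 20.0 and 43.7 CPM in the epithelium and at 390, 284, 189 and 190 CPM in Absorptive cells. Of its 3' end words, 31.9% also occur in the pseudogene Ces2d-ps. Ces2g stood at 39.6, 20.5, 24.2 and 19.2 CPM, Ces2e at 41.5, 13.7, 15.0 and 18.1 CPM, and Ces2a at 38.1, 5.20, 5.23 and 6.16 CPM in the epithelium. In the wildtype untreated library 47.4% of Ces2g UMIs but 88.0% of Ces2c and 84.3% of Ces2a UMIs of the epithelium lay in Absorptive cells.

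Ces1 genes, several of which encode lipases of fat-storing and liver cells, were mesenchymal instead, at 653, 31.7, 952 and 285 CPM against 2.74 to 7.11 CPM in the epithelium. Ces1f made up 73.5% of their mesenchymal UMIs, with 466, 20.9, 881 and 233 CPM. Ces1d, a triacylglycerol hydrolase, stood at 149, 0.340, 32.6 and 1.26 CPM and Ces1g at 34.6, 5.91, 33.1 and 36.7 CPM. The exception was Ces1c, which was found in the Secretory-Reg4-Spdef-Lyz1 class at 28.2, 15.5, 132 and 78.4 CPM and in Progenitor.1 at no more than 1.95 CPM. It was higher in both Tnfr2-/- libraries than in both wildtype libraries of that secretory class, the Tnfr2-/- TNF value resting on 8 cells.

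Of the aldo-keto reductases, the Akr1c genes were epithelial. Akr1c13 stood at 133, 116, 82.9 and 71.7 CPM, Akr1c12 at 105, 94.2, 66.4 and 57.6 CPM, and Akr1c19 at 44.7, 17.7, 16.7 and 8.15 CPM. These genes encode hydroxysteroid and carbonyl reductases. Enteroendocrine cells, the hormone-producing class, carried Akr1c13 at 253, 154, 217 and 174 CPM, and also Sult1d1 at 125, 101, 108 and 119 CPM and Cyp2c68 at 238, 226, 182 and 123 CPM. In Absorptive cells of the wildtype untreated library, which held 319 of the 350 cells of that class, Akr1c13 stood at 172 CPM, Cyp2c68 at 188 CPM and Sult1d1 at 149 CPM. In that library the first 2 were thus higher in Enteroendocrine cells and Sult1d1 was lower. In mesenchyme the leading Akr1c member was Akr1c18, a progesterone-reducing enzyme, at 15.1, 15.2, 0.459 and 4.19 CPM.

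The Akr1b genes were found in both compartments. Akr1b3, the aldose reductase that turns glucose into sorbitol, stood at 60.7, 47.0, 61.9 and 26.2 CPM in epithelium and at 67.4, 86.2, 68.0 and 52.4 CPM in mesenchyme, and 99.4% of its 3' end words also occur in the pseudogene Gm6644. Akr1b8, a reductase of reactive aldehydes, stood at 25.4, 41.1, 29.3 and 45.1 CPM in epithelium and at 113, 504, 153 and 662 CPM in mesenchyme. Akr1b10 stood at 11.7 to 14.5 and 20.4 to 34.5 CPM, and Akr1b7 had 159 UMIs in all.

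Among the glutathione S-transferases, Gsto1 (chromosome 19, 47854970 to 47864790, plus strand) was the most abundant member in the epithelium. Its epithelial level was 557, 484, 1002 and 1548 CPM, against 43.0, 45.6, 43.6 and 82.2 CPM in mesenchyme. After thinning, 77.7% to 85.7% of Progenitor.1 cells and 83.0% to 94.7% of Progenitor.2 cells of a library had a Gsto1 UMI, and 17.1% to 20.9% of mesenchymal cells did (98.9% to 100%, 96.8% to 98.7% and 54.0% to 72.5% unthinned). Gsta genes, which conjugate electrophiles such as lipid aldehydes, were epithelial. Gsta1 stood at 233.9, 175, 97.7 and 98.3 CPM and Gsta4 at 113, 140, 155 and 130 CPM, whereas both stayed below 14 CPM in mesenchyme. Gsta1 shares 78.5% of its 3' end words with Gm3776 and its count may hold both. Gsta2 had only 97 UMIs.

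Gsta3 ran against its relatives. It stood at 13.0, 30.4, 34.7 and 11.4 CPM in the epithelium, at 20.5, 50.8, 40.2 and 25.4 CPM in Progenitor.1, and at 1.68, 13.9, 11.1 and 0 CPM in Absorptive cells. Its pooled level was highest in Progenitor.3, at 50.1 CPM.

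Gstm genes stood higher in mesenchyme, at 542, 224, 873 and 722 CPM against 102, 130, 59.9 and 42.1 CPM. Gstm1 and Gstm2 made this difference. Gstm1 was at 224, 101, 567 and 462 CPM in mesenchyme and at 28.9, 39.1, 14.8 and 6.56 CPM in epithelium, and Gstm2 at 226, 63.6, 233 and 196 CPM and at 7.73, 15.4, 1.18 and 0.553 CPM. Gstm5 was near even, at 77.1, 55.0, 61.6 and 59.3 CPM in mesenchyme and 53.1, 58.1, 38.9 and 31.0 CPM in epithelium. Of the Gstm1 end words, 39.0% also occur in Gstm3, which had 694 UMIs.

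Of the smaller Gst families, Gstp1 was found in both compartments (29.1 to 44.5 CPM in epithelium, 21.6 to 36.3 CPM in mesenchyme) and Gstp3 in epithelium alone above 2 CPM (25.1, 31.1, 45.2 and 35.1 CPM). Gstp1 and Gstp2 share 90.5% and 100% of their end words and cannot be separated with certainty. Gstt2 differed by genotype in the epithelium, at 19.6 and 25.6 CPM in the wildtype libraries and 2.43 and 2.09 CPM in the Tnfr2-/- libraries, and in mesenchyme it stood at 8.33, 6.12, 6.43 and 6.08 CPM. Its untreated values were below 20 CPM, so it was not among the genes counted below. Gstt3 stood at 10.8 to 19.2 CPM and Gstk1, a mitochondrial and peroxisomal transferase, at 4.10 to 10.6 CPM in the epithelium. Gstt1 stood at 11.5, 0.884, 4.59 and 1.26 CPM in mesenchyme.

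Glucuronidation genes were few. Ugt2b34 carried 92.4% of epithelial Ugt2 UMIs, at 81.1, 79.7, 50.1 and 47.4 CPM. Ugt2b35 stood at 4.25, 6.46, 6.46 and 3.19 CPM. Ugt1a7c led the Ugt1a genes at 3.14 to 8.92 CPM in epithelium and 1.89 to 5.34 CPM in mesenchyme, while Ugt1a6a had 589 UMIs and Ugt1a1, the bilirubin-conjugating form, had 51. All Ugt1a genes share their last exons, and 100% of their 3' end words were common, so the split between them is uncertain.

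Sulfotransferase UMIs were nearly all epithelial, at 263, 190, 59.4 and 74.6 CPM against 1.63 to 4.11 CPM. Sult1b1, which sulfates phenols and thyroid hormones, stood at 138, 67.2, 12.2 and 17.6 CPM. Sult1d1, a catecholamine sulfotransferase, stood at 68.2, 48.4, 21.9 and 23.8 CPM, and Sult2b1, which sulfates cholesterol, at 48.2, 66.9, 21.3 and 27.7 CPM. All 3 were higher in both wildtype libraries than in both Tnfr2-/- libraries, while Sult1a1 had 49 UMIs.

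Across the whole table, a gene was tested in a comparison if it reached 20 CPM on 1 side in every library or pair, and was called if log2(CPM + 1) differed one way in every one of them by 2-fold or more. Between epithelium and mesenchyme, 22 members could be tested. Called higher in epithelium in all 4 libraries were 14 of them, where 10.4% of all genes tested were, and 4 were called lower, where 14.8% were. The median member differed by 4.34, 4.89, 4.38 and 3.46 on the log2 scale and the median gene by -0.10, -0.08, 0.11 and 0.05. The members higher in epithelium included Gsta1 (6.87, 7.04, 6.62 and 4.51), Cyp2c55 (6.96, 6.99, 6.42 and 4.45) and Cyp2c68 (5.82, 5.73, 5.34 and 4.89), and the 4 lower were Ces1f (-8.49, -4.08, -9.52 and -7.70), Gstm2 (-4.70, -1.98, -6.75 and -6.99), Gstm1 (-2.91, -1.35, -5.17 and -5.94) and Akr1b8 (-2.12, -3.59, -2.34 and -3.85). The Tnfr2-/- TNF library, whose mesenchyme held the most epithelial marker UMIs, also had the smallest differences for Gsta1, Cyp2c55 and Cyp2c68, and the part of these UMIs in that was not tested.

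Other detoxification genes, a list of 67 outside the symbol rule, were called in both directions. Of 35 tested, 9 were higher in epithelium (25.7%, where 10.4% of all genes tested were) and 8 lower (22.9%, where 14.8% were). The median gene of the list differed by -0.19, -0.07, -0.29 and -0.36. Higher were Gpx2, the gut glutathione peroxidase (5.99, 6.95, 6.04 and 4.11), Mgst3, the exporter Abcb1a, Maoa, Cbr1 and the sulfate donor enzyme Papss2 among others. Lower were Aldh3a1, an aldehyde dehydrogenase (-6.15, -4.29, -5.92 and -4.66), Me1, Hmox1, Slc7a11, Mgst1, Ugdh, Tiparp and Abcb1b. Ugdh, which makes the glucuronic acid donor, was thus lower in the compartment where Ugt2b34 was higher.

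In the 3 libraries with 10 or more Absorptive cells, most families stood higher in Absorptive than in Progenitor.1 cells. Of 29 members tested, 16 were called higher in Absorptive cells (7.81% of all genes tested were) and 1 lower (13.3% were). The median member differed by 1.36, 2.11 and 1.62 on the log2 scale, in the wildtype untreated, wildtype TNF and Tnfr2-/- untreated libraries, against -0.12, -0.17 and -0.14 for the median gene. P450 genes were among the most different, with Cyp4f14 at 5.66, 6.47 and 5.74, Cyp2d34 at 5.11, 5.71 and 5.87, and Cyp2c55 at 3.82, 5.63 and 5.17. Cyp2d10, Cyp2d26, Cyp3a13, Cyp4f13, Cyp2c68 and Cyp2j6 were called too.

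Phase II members and carboxylesterases were called beside them. Sult1b1 differed by 3.50, 4.51 and 5.22, Gsta1 by 3.88, 4.51 and 4.42, Ces2c by 4.52, 4.17 and 4.22, and Ces2a, Ces2e, Sult1d1 and Ugt2b34 were called with smaller values. Gsta3 was the 1 called lower, by -3.00, -1.80 and -1.76. From the list of other genes, Abcg2 and Abcb1a, both exporters of drugs, were called higher (3.55, 4.97 and 3.69; 2.50, 2.58 and 3.07) with Maoa, Srxn1, Mgst3, Ugdh and Nat2, and Mgst1 and Ahr, the aryl hydrocarbon receptor, were called lower. That makes 7 higher and 2 lower of 35 tested, where 7.81% and 13.3% of all genes tested were.

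**Figure D3:**
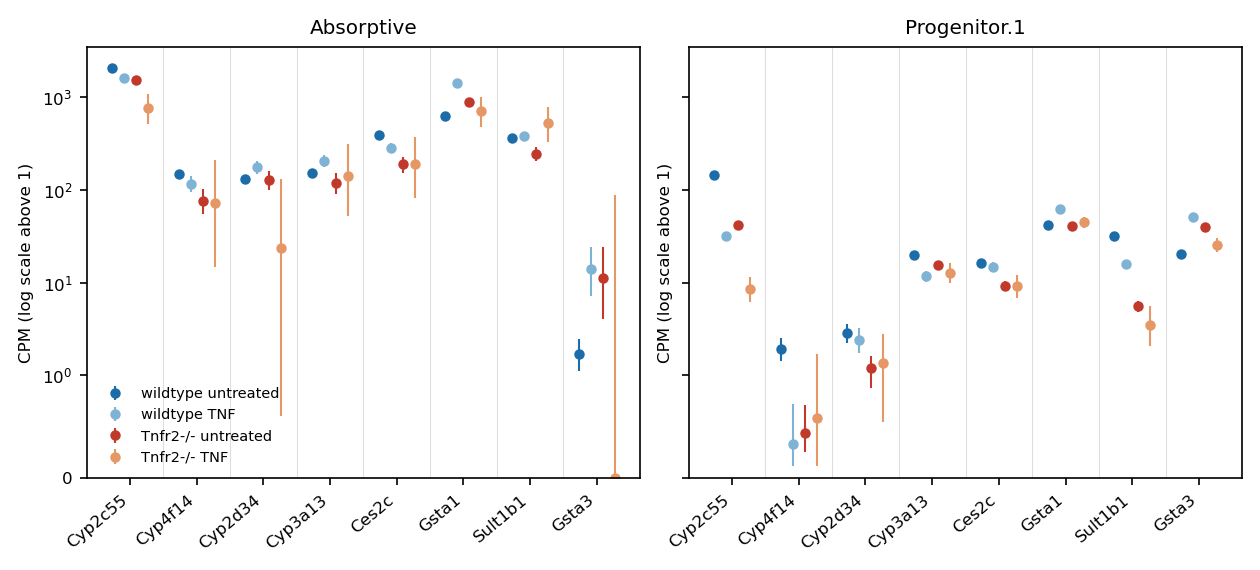
Level of 8 members in Absorptive cells (left) and Progenitor.1 cells (right) in each library (points, CPM, log scale above 1, with exact 95% counting intervals). The first 7 members sit higher on the left in the 3 libraries with 10 or more Absorptive cells, as Cyp2c55 does with 2078 against 146 CPM in wildtype untreated cells, and Gsta3 sits lower on the left; the single Tnfr2-/- TNF Absorptive cell has the widest intervals.

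Progenitor.2 stood between these classes for many members. Compared with Progenitor.1 in all 4 libraries, a comparison added after the values had been seen, 6 of 20 members tested were called higher (6.52% of all genes tested were) and 1 lower (8.36% were). Higher were Ces2c (3.74, 3.01, 2.47 and 2.32), Cyp2c55 (2.46, 3.15, 2.14 and 3.65), Cyp3a13, Gsta1, Sult1d1 and Sult2b1. Akr1b3 was lower (-1.64, -1.38, -1.24 and -1.21). Gsto1 was higher in all 4 libraries, by 1.40, 0.85, 2.57 and 2.07, and missed the call in wildtype TNF cells. Summed levels of 8 absorptive markers (Krt20, Slc26a3, Car4, Aqp8, Guca2a, Car1, Slc37a2 and Ceacam20) were 3445, 1971, 750 and 613 CPM in Progenitor.2 and 422, 57.3, 124 and 67.1 CPM in Progenitor.1, and their part in these differences was not tested.

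Genotype was compared over all epithelial cells and then within the progenitor classes, since Absorptive cells were so unevenly spread. Over all epithelial cells, 24 members were tested, and 0 were called higher in Tnfr2-/- (1.13% of all genes tested were) and 4 lower (1.41% were). The 4 were Sult1b1 (-3.40 and -1.88), Cyp2d34 (46.1, 24.8, 6.67 and 11.9 CPM), Cyp2c68 (-1.32 and -1.18) and Sult2b1 (-1.15 and -1.24). The median member differed by -0.80 and -0.72 and the median gene by 0.10 and -0.12. Without the Absorptive cells 3 members were called lower, and only 1 of the 4 above was among them. Gsto1 was the member furthest toward higher, by 0.85 and 1.68, followed by Gstp3 (0.82 and 0.17) and Akr1b8 (0.20 and 0.13). Gsto1 and Gstp3 lie on chromosome 19. There, 232 tested genes that are not members had a median difference 0.43 and 0.49 above that of all genes. Of 5 members tested on that chromosome, 2 were higher and 2 lower in both pairs. The part of this shift, and of the uneven numbers of Progenitor.2 cells, in the member differences was not tested.

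Within Progenitor.1, 17 members were tested, with 0 higher (0.367% of all genes tested were) and 2 lower (0.647% were). Cyp2c55 was at 146, 31.8, 41.7 and 8.58 CPM there, differing between genotypes by -1.79 and -1.78. Gstm1 was at 40.7, 58.8, 15.6 and 15.2 CPM, differing by -1.33 and -1.88. For Gstm1 both wildtype values were above both Tnfr2-/- values, whereas for Cyp2c55 the wildtype TNF value was below the Tnfr2-/- untreated one. The other 15 did not reach 2-fold in both pairs: Sult2b1 was nearest to it on the lower side, at -0.67 and -1.73, and Gstp3 on the higher side, at 0.64 and 0.59. Gstp3 lies on chromosome 19, where tested genes that are not members had a median difference 0.42 and 0.54 above that of all genes. Gsto1 stood at 503, 406, 514 and 416 CPM, a difference of 0.03 and 0.04.

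Progenitor.2 held the most calls between genotypes. Of 25 members tested, 7 were lower in Tnfr2-/- (1.81% of all genes tested were) and 1 was higher (1.1% were). Cyp4f14 was at 50.03, 21.3, 4.74 and 3.88 CPM (-3.15 and -2.19), Sult1b1 at 96.5, 163, 27.2 and 19.4 CPM (-1.79 and -3.01), and Cyp2c55 at 811, 290, 187 and 119 CPM (-2.11 and -1.28). For these 3 both wildtype values lay above both Tnfr2-/- values. Ces2c stood at 227, 126, 55.5 and 49.7 CPM, Cyp2d34 at 67.3, 59.8, 21.2 and 13.7 CPM, Cyp2j6 at 145, 158, 69.5 and 57.1 CPM, and Sult2b1 at 104, 89.3, 48.9 and 30.2 CPM, with the same order of genotypes.

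**Figure D4:**
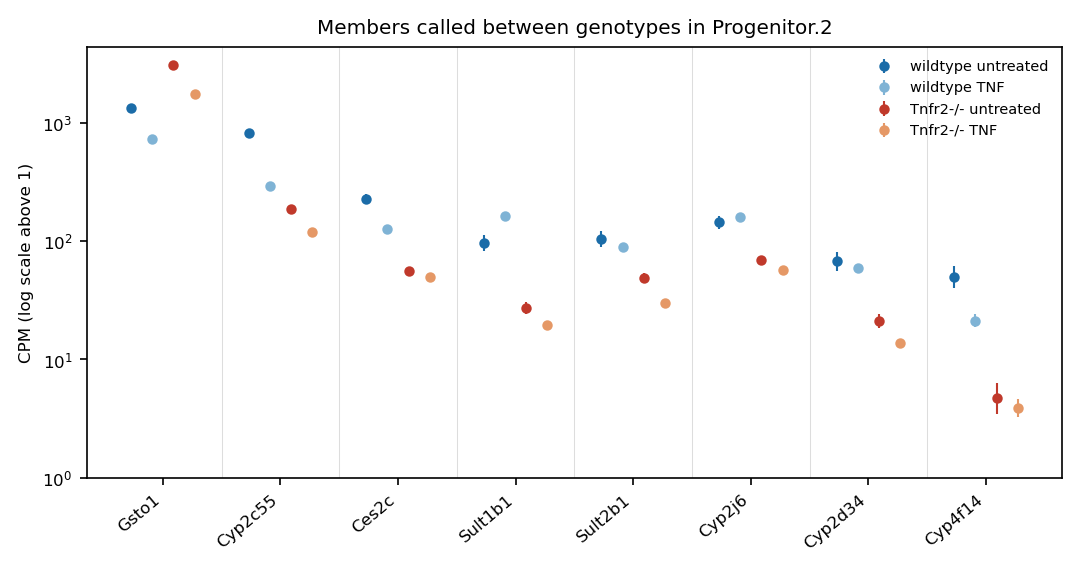
Level of the 8 members called between genotypes in Progenitor.2 cells (points, CPM, log scale, with exact 95% counting intervals; colours give the library). Gsto1 is higher and the other 7 lower in Tnfr2-/- than in wildtype cells at the same treatment, which is how these members were chosen.

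The member that was higher in Tnfr2-/- Progenitor.2 cells was Gsto1, at 1330 and 733 CPM in wildtype and 3048 and 1755 CPM in Tnfr2-/- cells, a difference of 1.20 and 1.26. On its chromosome, 225 tested genes on chromosome 19 that are not members had a median difference 0.45 and 0.51 above that of all genes in Progenitor.2, and 239 such genes 0.42 and 0.54 above it in Progenitor.1, where Gsto1 differed by 0.03 and 0.04. In Progenitor.2, 5 members on chromosome 19 were tested, and 2 were higher and 2 lower in both pairs. The absorptive markers given above were also lower in Tnfr2-/- Progenitor.2 cells at each treatment, with all 8 detected in each library there. Wildtype untreated Progenitor.2 had 62 cells with a median of 15574.5 UMIs, against medians of 33685 to 39167 UMIs in the other libraries. The part of these in the genotype differences was not tested.

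Some export and microsomal conjugation genes differed between genotypes as well. Of 37 other genes tested in Progenitor.2, 4 were lower in Tnfr2-/- (1.81% of all genes tested were) and 0 higher (1.1% were). They were Abcb1a (679, 477, 146 and 66.3 CPM), Abcg2 (121, 43.9, 18.5 and 8.71 CPM), Mgst2 and Mgst3. In Progenitor.1, of 34 tested, Adh1, an alcohol dehydrogenase, was lower (34.5, 153, 3.21 and 6.63 CPM) and the conjugate exporter Abcc2 higher (3.15, 6.24, 24.8 and 44.3 CPM). Of all genes tested there, 0.647% were lower and 0.367% higher. Over all epithelial cells Adh1, Abcb1a, Mgst2 and Mgst3 were lower and Hmox1 higher, of 36 tested, where 1.41% and 1.13% of all genes tested were.

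Few members were called after TNF. Over all epithelial cells, 21 were tested and 0 were called in either direction (0.92% of all genes tested were higher and 0.0721% lower). In the wildtype pair alone 1 member was at least 2-fold higher and 3 lower, and in the Tnfr2-/- pair 2 higher and 2 lower. Of all 5545 genes tested, 123 were higher and 30 lower in the wildtype pair. In the Tnfr2-/- pair 244 were higher and 427 lower. Akr1b8 (0.67 and 0.61) and Sult2b1 (0.46 and 0.37) were the 2 that were higher in both pairs. Cyp2c68 (-0.58 and -0.44), Akr1b3 (-0.36 and -1.21) and Ces2g (-0.92 and -0.32) led those that were lower in both. Not all of this held within classes. Akr1b8 differed by 0.44 and -0.11 in Progenitor.1 and by 1.34 and -0.09 in Progenitor.2. Sult2b1 differed by 0.96 and -0.10, then -0.22 and -0.68, and Cyp2c68 by -0.30 and 0.51, then 0.45 and -0.94. Ces2g was lower in both pairs of both classes. Cyp2c55 differed by -2.43 in wildtype and 0.29 in Tnfr2-/- cultures, and the Absorptive cells went from 319 to 19 and from 11 to 1.

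Within Progenitor.1, Cyp2c55 was the 1 member of 16 tested that was called (0.286% of all genes tested were lower and 0.286% higher). It was lower after TNF by -2.17 in wildtype and -2.16 in Tnfr2-/- cells. The share of Progenitor.1 cells with a Cyp2c55 UMI after thinning was 26.4%, 6.57%, 7.61% and 2.13% (unthinned 52.6%, 29.6%, 21.6% and 8.42%). The summed absorptive markers of the same cells, 422, 57.3, 124 and 67.1 CPM, were led by Car1 at 395, 21.0, 115 and 48.8 CPM and moved the same way, while Car4 was at 0 in all but the wildtype untreated library. Their part in the Cyp2c55 difference was not tested. Ces2g was next at -0.85 and -0.89, and Gsto1 differed by -0.31 and -0.30. On the higher side Gsta1 (0.55 and 0.13), Gstm5 (0.25 and 0.09) and Gstp1 (0.46 and 0.08) were furthest.

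In Progenitor.2, of 24 members tested, 0 were called after TNF (0.417% of all genes tested were higher and 0.512% lower). Cyp2c55 differed by -1.48 and -0.65 and Gsto1 by -0.86 and -0.80, and Cyp2s1 was furthest on the higher side at 2.37 and 0.94. From the list of other genes, 34 were tested over all epithelial cells, and 2 were called higher (0.92% of all genes tested were). They were Slc7a11, the cystine importer for glutathione synthesis (1.89 and 1.15), and Hmox1, haem oxygenase (1.14 and 2.06). In Progenitor.1 and Progenitor.2, 0 of 33 and 0 of 34 were called.

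In mesenchyme, the libraries held different classes, since Mesenchyme-Ifitm1 came almost wholly from the wildtype untreated library (892 of 893 cells). Conditions were therefore compared within Mesenchyme-Ptges, which had 34, 304, 37 and 122 cells. After TNF, 1 of 10 members tested was called lower (1.39% of all genes tested were) and 0 higher (1.67% were). Ces1f was at 742, 20.9, 509 and 233 CPM, a difference of -5.08 in wildtype and -1.12 in Tnfr2-/- cells, and 91.7%, 5.74%, 67.6% and 40.8% of cells had a UMI of it after thinning (91.2%, 24.7%, 89.2% and 71.3% unthinned). At most 0.118% of epithelial cells of a library did (1.24% unthinned). The 2 untreated libraries were above both TNF libraries.

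Ces1d was at 216, 0.342, 9.61 and 1.26 CPM, from 74, 5, 8 and 6 UMIs, so its Tnfr2-/- pair lay under 20 CPM and it was not tested. Akr1b8 was higher after TNF, at 266, 506, 186 and 662 CPM (interval 214 to 326 for the first), a difference of 0.93 and 1.83 that missed the call in wildtype cells. Its share of cells after thinning was 33.3%, 75%, 44.1% and 86.7% (26.5%, 95.7%, 78.4% and 100% unthinned), against 9.77% to 16.7% of epithelial cells (50.3% to 58.6% unthinned). Of 36 other genes tested, Gclm, Txnrd1, Abcc4 and Abcc1 were called higher after TNF (1.67% of all genes tested were) and the epoxide hydrolase Ephx1 lower (1.39% were). Gclm and Txnrd1 are known NRF2 targets, and Gclm stood at 2.92, 48.2, 48.0 and 142 CPM, the first value from 1 UMI. Wildtype untreated UMIs were few for the others too, at 14 for Txnrd1, 12 for Abcc1, 6 for Abcc4 and 26 for Ephx1.

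**Figure D5:**
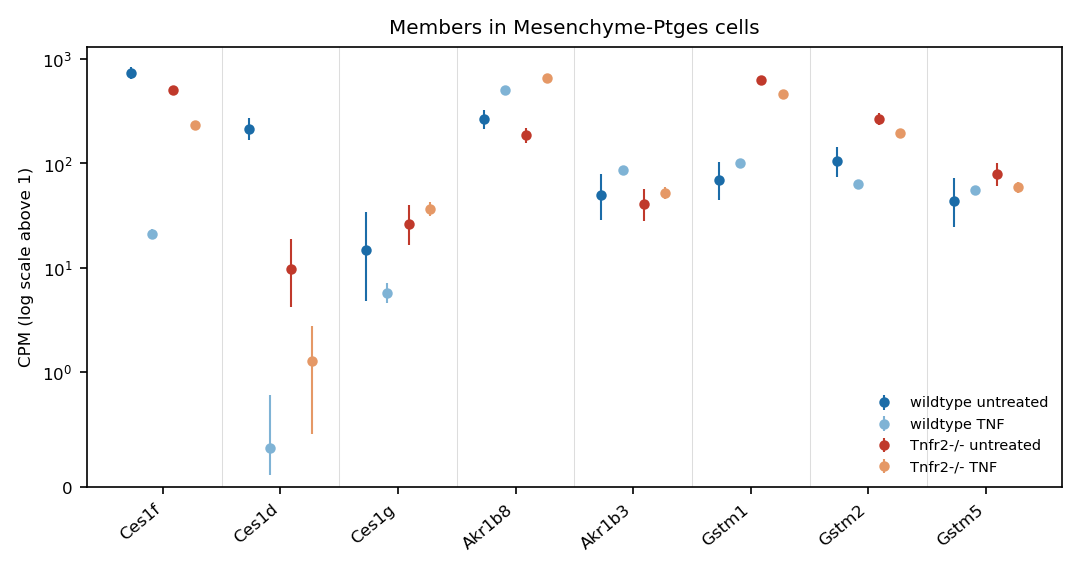
Level of 8 members in Mesenchyme-Ptges cells in each library (points, CPM, log scale above 1, with exact 95% counting intervals). Ces1f and Ces1d sit lower in TNF than in untreated cells of the same genotype, Akr1b8 higher, and Gstm1 and Gstm2 higher in Tnfr2-/- than in wildtype cells at the same treatment.

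Between genotypes, 2 of 11 members tested in Mesenchyme-Ptges were higher in Tnfr2-/- (3.03% of all genes tested were) and 0 lower (2.04% were). They were Gstm1, at 70.1, 101, 637 and 462 CPM (3.17 and 2.18), and Gstm2, at 105, 63.6, 268 and 196 CPM (1.34 and 1.61). For both, each Tnfr2-/- value was above each wildtype value. In the epithelium the same genes lay the other way, at 28.9, 39.1, 14.8 and 6.56 CPM for Gstm1 and 7.73, 15.4, 1.18 and 0.553 CPM for Gstm2. Gstm5, which lies with them on chromosome 3, stood at 43.8, 55.1, 79.3 and 59.3 CPM. Of 35 other genes tested, Hmox1, Nqo1, Gclm, Gpx2 and Maoa were higher in Tnfr2-/- and 0 lower, with Hmox1 at 70.1, 126, 337 and 1016 CPM. In the wildtype untreated library these calls rested on 24 UMIs of Hmox1, 2 of Nqo1, 1 of Gclm, 4 of Gpx2 and 3 of Maoa, and those of Gstm1 and Gstm2 on 24 and 36. The wildtype untreated cells of this class were shallow, with a median of 5755 UMIs and 342542 UMIs in all, and epithelial markers stood at 52.5, 198, 51.6 and 763 CPM.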

How the data were processed

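The authors deposited UMI counts per gene and cell with a class for each cell, and these counts are whole numbers that were not normalized. Per the labels' processing notes, Cell Ranger 5.0.0 and mm10 were used, and per the paper the authors removed cells under 100 UMIs and doublets of epithelial and mesenchymal cells. No further cells were removed here, and no doublet caller was run. The lowest cell held 894 UMIs. For each library and class, the counts of its cells were added up and scaled to CPM by their total. Differences were taken on log2(CPM + 1), with a minimum of 20 CPM and a limit of 2-fold in every library or pair. With 1 library per group no p-value was computed. Poisson and Clopper-Pearson intervals are at 95%. Shares of cells were taken after thinning to 5000 UMIs, which left out 405 of 6155 cells, 244 of them in the Secretory-Reg4-Ang4 class of 246.

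Members were chosen by symbol pattern. The members, the list of 67 other genes, the markers and the thresholds were chosen with earlier results of these data known. Named were the leading members of each family by compartment, every member called, the members at each end of a comparison and a fixed list of members, while Cyp2b10, Cyp4x1os, Cyp2c29, Cyp2c69, Ces1c and Ces1g, the other members with a motif and the pseudogenes were named after their values were seen. Positions came from GENCODE M21 (GRCm38), and promoters from RefSeq (GRCm38.p6), which gave a window for 141 of 169 members. Sharing of 3' ends was the share of words of 75 bases in the last 400 bases of a transcript that occur in another gene. Protein identity within families was not analysed here. On simulated counts of 5628 genes the epithelial genotype rule recovered 160 of 160 genes changed 3 or 4-fold and 0 of 40 changed 1.5-fold, with 0 false calls. All libraries were drawn from the pooled epithelial profile with counting noise only. The simulation thus gives no error rate for calls between real cultures, which also differ in other ways.

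Alternatives were pseudocounts of 0.1 and 10 CPM, no minimum, a limit of 1.5-fold, TMM factors (edgeR 4.0.16), median-of-ratios size factors (DESeq2 1.42.0), the mean over cells, cells with at least 10000 UMIs, and, for all epithelial cells, leaving out the Absorptive class or the Progenitor.3 and Ang4 classes and weighting Progenitor.1 and Progenitor.2 equally. Python 3.11.15 and R 4.3.3 were used.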

Additional observations from a re-analysis of the deposited data

Results flagged for a closer look

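Some members moved in opposite directions in the 2 genotypes when TNF was compared with untreated, over all epithelial cells. Gsta3 differed by 1.17 in wildtype and -1.53 in Tnfr2-/- cultures on the log2 scale, Ces2c by -1.40 and 1.09, and Cyp2d26 by -1.57 and 1.42. For genotype, Gsta3 differed by 1.35 untreated and -1.34 with TNF, and Cyp2d26 by -1.38 and 1.61. Absorptive cells numbered 319, 19, 11 and 1 and Progenitor.2 cells 62, 273, 233 and 716, with wildtype before Tnfr2-/- and untreated before TNF within each. Within classes, the TNF difference of Ces2c had 1 sign in both genotypes, at -0.11 and -0.01 in Progenitor.1 and -0.84 and -0.16 in Progenitor.2. Gsta3 kept opposite signs, at 1.27 and -0.64 in Progenitor.1 and 1.80 and -1.13 in Progenitor.2, and Cyp2d26 did in Progenitor.2, at -1.02 and 0.81. This was common there, since 13 of 24 members tested in Progenitor.2 did not go 1 way in both pairs. Gsta4 (0.97 and -0.86) and Gsta1 (0.49 and -1.41) were among them. With 1 library per group none of these differences between pairs was tested.

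The 35 cells without a class also held UMIs of these families. Their summed level was 2275 CPM from 5575 UMIs, where 3 counts would be 1.22 CPM, and it included Gsto1 at 377 CPM, Cyp2c55 at 331 CPM and Ces1f at 131 CPM.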

How the results depend on the processing

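No paired analysis was possible because each group had 1 library, so the groups shared no second replicate number that could serve as a block, and no replicate could be left out. The differences themselves were taken within genotype or within treatment. Of 188 counts of members called under an alternative, 153 were within 1.5 times the count reported and 35 were not, and the cause was not tested. The share of all genes called can change with these settings too and is not given here. The counts below therefore show only how calls of members depend on a setting. Without the 20 CPM minimum, more members could be called: 32 higher and 8 lower between epithelium and mesenchyme, 2 lower in Absorptive cells, 14 higher and 3 lower in Progenitor.2 against Progenitor.1, 2 higher and 10 lower between genotypes in all epithelial cells, 7 lower in Progenitor.1, 4 higher in Progenitor.2 and 1 lower in Mesenchyme-Ptges, and after TNF 1 higher in all epithelial cells, 3 lower in Progenitor.1 and 2 lower in Mesenchyme-Ptges. With a limit of 1.5-fold, genotype gave 1 higher and 11 lower in all epithelial cells, 1 higher in Progenitor.1 and 4 higher in Mesenchyme-Ptges, TNF gave 1 higher in all epithelial cells, 2 lower in Progenitor.1, 1 higher and 3 lower in Progenitor.2 and 2 higher in Mesenchyme-Ptges, and Progenitor.2 against Progenitor.1 gave 2 lower. A pseudocount of 10 CPM left 1 lower between genotypes in all epithelial cells, 1 in Progenitor.1, and 0 in Progenitor.2 against Progenitor.1. The mean over cells gave 0 lower in Absorptive cells, 1 higher between genotypes in all epithelial cells, 1 lower in Progenitor.2 and 1 higher in Mesenchyme-Ptges after TNF, and 2 lower in Progenitor.2 against Progenitor.1. After TNF, TMM factors, median-of-ratios size factors and cells with at least 10000 UMIs each gave 1 higher in Progenitor.2, and TMM factors gave 0 lower in Progenitor.2 against Progenitor.1. These 2 scalings moved the median of all genes by at most 0.25 on the log2 scale, the most in wildtype untreated epithelium against mesenchyme. No count of cells or UMIs replaces replicate cultures, and values from few cells, as in the single Tnfr2-/- TNF Absorptive cell, are the least certain.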
